A study of Homo sapiens with 90 samples.

Results

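Transcript levels of BxPC-3 cells, an established line of human pancreatic adenocarcinoma, were compared between cetuximab and negative control 2 h after the antibody was added. Cetuximab is a monoclonal antibody that binds the extracellular part of the epidermal growth factor receptor EGFR and blocks its ligands. The comparison used the 6 arrays whose labels give a time of 2 h, of 90 in the series: 3 of the cetuximab arm (replicates 2, 3 and 4) and 3 of the negative control arm (replicates 1, 2 and 3). It was made across 12735 genes on an Illumina HumanHT-12 v4 BeadChip, which gives 1 value per probe and array, here on the log2 scale.

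All cells of both arms had been starved in DMEM with 0.2% FBS, and time 0 lay 24 h after the start of starvation. From time 0 on, the medium of the cetuximab arm held 10 µg/ml of the antibody, and the labels do not say what the negative control received. The other arrays cover the same arms at time 0, at other times up to 8 h, and daily up to day 7, with 3 arrays in each of 30 groups. Separate cultures are not stated for the replicates, so a p-value reflects the spread among the arrays of the series alone, which may be technical. A single cell line was used, so the values describe that line only. A bulk level also does not tell fewer cells with a transcript from less of it in each cell.

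When a ligand binds EGFR, the receptor signals through RAS and the kinase ERK and through the lipid kinase PI3K. ERK activity switches on immediate early genes, such as the transcription factors EGR1 and FOS, within minutes, and then a set of feedback inhibitors that includes the dual-specificity phosphatases (DUSP) and Sprouty proteins (SPRY). PI3K and its target AKT keep the FOXO transcription factors out of the nucleus, and many tumours of epithelial origin, those of the pancreas among them, express EGFR together with several of its ligands.

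The promoters of EGR1, DUSP1 and IL11, which were called lower at 2 h, are shown because each holds a match to the site of a factor known to act downstream of growth factor receptors. The sequences are the RefSeq windows from 250 bases before to 50 bases after the gene start on GRCh38.p14, written 5′ to 3′ on the strand of the gene, with matches in capitals. EGR1 lies on the plus strand at chr5:138465229-138465528 and holds a pair of CArG boxes, the site of serum response factor (SRF), that begin at positions -105 and -83 from the gene start. DUSP1 lies on the minus strand at chr5:172771146-172771445 and holds a cAMP response element, TGACGTCA, at position -125. IL11 lies on the minus strand at chr19:55370414-55370713 and holds an AP-1 site (TGANTCA) at position -96.
EGR1: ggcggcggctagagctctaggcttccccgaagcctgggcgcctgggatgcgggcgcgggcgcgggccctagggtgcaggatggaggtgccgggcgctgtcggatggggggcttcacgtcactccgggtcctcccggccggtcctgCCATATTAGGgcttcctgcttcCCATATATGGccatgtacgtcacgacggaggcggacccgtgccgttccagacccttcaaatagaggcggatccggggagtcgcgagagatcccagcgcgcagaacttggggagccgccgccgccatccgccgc
DUSP1: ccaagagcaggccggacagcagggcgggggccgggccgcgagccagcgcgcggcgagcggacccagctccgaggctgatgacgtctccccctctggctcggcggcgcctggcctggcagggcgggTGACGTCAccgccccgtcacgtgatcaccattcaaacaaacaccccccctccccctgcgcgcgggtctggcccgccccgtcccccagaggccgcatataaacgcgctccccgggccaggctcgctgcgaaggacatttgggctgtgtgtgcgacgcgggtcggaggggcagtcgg
IL11: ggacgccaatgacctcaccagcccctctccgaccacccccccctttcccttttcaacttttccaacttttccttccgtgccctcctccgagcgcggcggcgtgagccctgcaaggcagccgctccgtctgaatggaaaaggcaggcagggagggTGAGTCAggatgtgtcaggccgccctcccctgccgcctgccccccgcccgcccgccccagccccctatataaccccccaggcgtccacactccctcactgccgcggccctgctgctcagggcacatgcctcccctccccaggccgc

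Across the 43 of 52 called genes with a promoter in the table (12 higher and 31 lower at 2 h), both strands were searched for the CArG box, the cAMP response element, the AP-1 site and the FOXO site GTAAACA. The CArG box was found in 1 of the 31 promoters of lower genes, that of EGR1, against 1.12% of the promoters of all tested genes and 1.29% of all promoters of this length. The cAMP response element was found in 2 of them (DUSP1 and EPHA2) against 3.2% of those of tested genes and 1.98% of all promoters. The AP-1 site was found in 3 (IL11, OSBPL10 and PLAUR) against 4.86% and 7.76%. The FOXO site was found in 1 of them, that of GDF15, and in 0 of the 12 promoters of higher genes, against 2.31% of those of tested genes and 3.41% of all promoters. A match is a run of letters and not a measured site.

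The 6 arrays had the same median, 4.29, and Pearson's r between any pair of them across probes lay between 0.9866 and 0.9886, within and between arms alike. All 14 measured epithelial markers passed the filter on dim probes, a mean over all arrays of at least 4.24. They were led by CEACAM6 (12.19 in cetuximab, 12.21 in control) and KRT19 (11.68 and 11.73). Of the markers of other cells, 5 of 10 fibroblast, 5 of 10 leukocyte, 1 of 6 endothelial and 2 of 10 acinar and islet markers passed it too. The fibroblast markers that passed (COL1A1, COL1A2, COL3A1, DCN and LUM) had arm means from 4.01 to 4.61, near the filter's limit. Among the leukocyte markers CD68, a lysosomal protein, stood at 8.11 in cetuximab and 8.04 in control, LYZ at 5.45 in both and CD14 at 5.22 and 5.19. PTPRC and CD3E of leukocytes, PDGFRA and FAP of fibroblasts, and VWF and CDH5 of endothelium did not pass. Summed on the linear scale, the epithelial markers ran from 18300 to 18600 in the cetuximab arrays and from 18800 to 19400 in the controls, and the arms overlapped in the sums of the other 4 marker lists. The part of the marker levels in the results was not tested.

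One control array, replicate 1, stood apart in the metallothioneins, small proteins that bind zinc and copper. MT1X, for example, lay at 11.19 in that array against 8.70 and 8.51 in the other control arrays and 8.41, 8.68 and 8.37 in the cetuximab arrays. MT1G (10.05 against 7.61 and 7.35), the zinc exporter SLC30A1 (8.51 against 6.29 and 6.42) and the heme oxygenase HMOX1 (6.14 against 4.81 and 4.76) were high in the same array. MT1X, MT1G and SLC30A1 in that array lay above every one of the 84 arrays of other times, whose highest levels were 10.96, 9.55 and 7.96. None of these genes was called between the arms, and the difference of MT1X went from -0.98 to -0.12 when the array was left out. Results below are also given without this array where leaving it out ended a call.

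At 2 h 52 genes were called in limma's moderated test, at a p under 0.05 after Benjamini-Hochberg adjustment over all genes (0.408% of those tested), 14 of them higher in cetuximab (0.11%) and 38 lower (0.298%). At an unadjusted p under 0.05 there were 407 higher and 471 lower genes. The count depended on the arrays in the fit, with 0 genes called (840 at an unadjusted p under 0.05) when the 6 arrays of 2 h were fitted alone, 7 without replicate 2, and 35 and 30 with both forms of a replicate block. Differences are cetuximab minus control on the log2 scale, ± SE. The SE is moderated by limma and pools the spread within all groups of the series, so it is not that of the 6 arrays alone. Lower and higher at 2 h describe cetuximab beside control at that time, not a change over time. RASD1 was lowest, at 0.493 of the control level, and CXXC5 highest, at 1.56 times it. The median absolute difference was 0.46 among called genes and 0.083 among all genes, whose median difference was 0.0015.

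In all 38 lower genes the 3 cetuximab arrays lay below the 3 control arrays, as they did in 6.55% of all genes. In 12 of the 14 higher genes they lay above the controls, as in 5.89% of all genes. The exceptions were CXXC5 and TRIM31, in which the arms overlapped. The differences behind the calls come from these same arrays, so this separation is partly built in and gives no separate support. Without control replicate 1, 26 genes were called (4 higher and 22 lower), of which 23 were among the 52. Without cetuximab replicate 2, 21 were called, 19 of them among the 52. That ended 33 of the 52 calls, more than the 29 ended without control replicate 1, but these losses are not given gene by gene. A gene not marked as lost below can thus have lost its call elsewhere. SOX9 and EPHA2, for example, lost it in 9 of 21 alternatives and HIPK2 in 8.

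**Figure D1:**
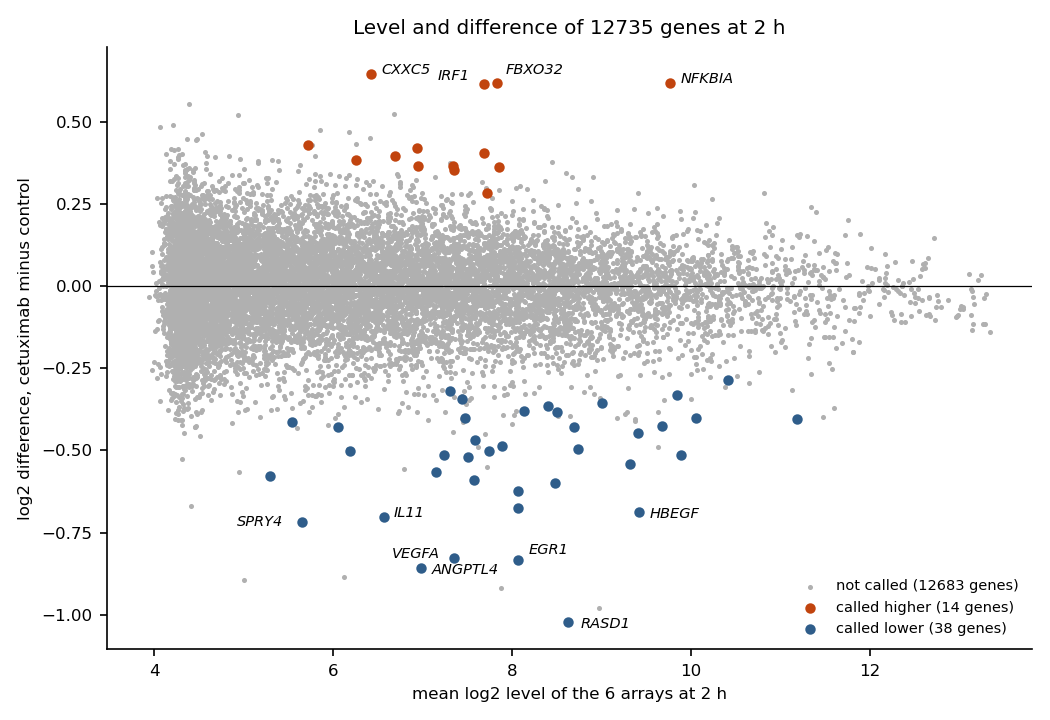
Mean log2 level of the 6 arrays at 2 h (x axis) against the log2 difference, cetuximab minus control (y axis), for 12735 genes. The 38 genes called lower reach -1.02 (RASD1), the 14 called higher reach 0.64 (CXXC5), and called genes lie at low, middle and high levels.

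EGR1, the immediate early transcription factor whose promoter is shown above, was lower in cetuximab. It measured 7.74, 7.47 and 7.76 in the cetuximab arrays and 8.70, 8.34 and 8.42 in the controls. The arms were apart by more than the spread within either, and the difference was -0.83 ± 0.14 (adjusted p = 9.74e-05 in limma). SPRY4, a Sprouty feedback inhibitor of the receptor to ERK pathway, measured 5.36, 5.10 and 5.40 against 6.06, 6.03 and 5.92. It differed by -0.72 ± 0.12 (adjusted p = 6.44e-05), but its dimmer probes gave -0.18 and 0.22, so the difference rests on 1 probe.

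DUSP1, a phosphatase that switches off MAP kinases, measured 8.00, 8.23 and 8.34 against 8.72, 8.94 and 8.70, a difference of -0.60 ± 0.093 (adjusted p = 2.81e-05). DUSP5, a nuclear phosphatase of ERK, was the called gene nearest the threshold, at -0.29 ± 0.073 (adjusted p = 0.049989). ZFP36, which binds messenger RNAs with AU-rich elements and speeds their decay, differed by -0.45 ± 0.077. The transcription factors KLF6 (-0.43 ± 0.086) and JUN (-0.40 ± 0.093), a subunit of AP-1, were also lower.

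The members of these groups were not all called. Of 27 measured immediate early genes, 5 were called lower (EGR1, DUSP1, ZFP36, KLF6 and JUN) and 0 higher, beside 0.298% called lower over all genes. Of the 27, 23 had a negative difference, and the median was -0.20, against 0.0015 over all genes. At time 0 the median of this list was already -0.25, against 0.01 over all genes. FOS, the other subunit of AP-1, measured 7.03, 6.91 and 7.24 in cetuximab against 7.46, 7.35 and 7.52. The arms did not overlap, but its difference of -0.38 ± 0.12 was not called (adjusted p = 0.189). JUNB, at -0.39, missed the threshold too (adjusted p = 0.0592).

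Of 23 measured genes of ERK pathway output 5 were called lower (EGR1, SPRY4, PLAUR, EPHA2 and DUSP5) and 0 higher, beside 0.298% called lower over all genes. Of the 23, 21 were negative, with a median of -0.18 against 0.0015 over all genes. At time 0 the median of this list was -0.096. PLAUR, EPHA2 and DUSP5 were called lower at time 0 as well. DUSP6, the cytoplasmic phosphatase of ERK, was not called, with a difference of -0.27 ± 0.18 (adjusted p = 0.862; 95% interval -0.64 to 0.094) on its brighter probe and -0.56 on a dimmer one. Its cetuximab arrays lay at 9.01, 9.14 and 9.04, within a narrower range than the controls, at 9.08, 9.51 and 9.42. MYC (-0.26 ± 0.10, adjusted p = 0.478) and CCND1, which encodes cyclin D1 (-0.12 ± 0.076, adjusted p = 0.842), were not called either, and the arms overlapped in both. None of 16 measured SRF and actin targets was called (2 were lower at an unadjusted p under 0.05), CCN2 being the lowest of them (-0.40, adjusted p = 0.145).

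**Figure D2:**
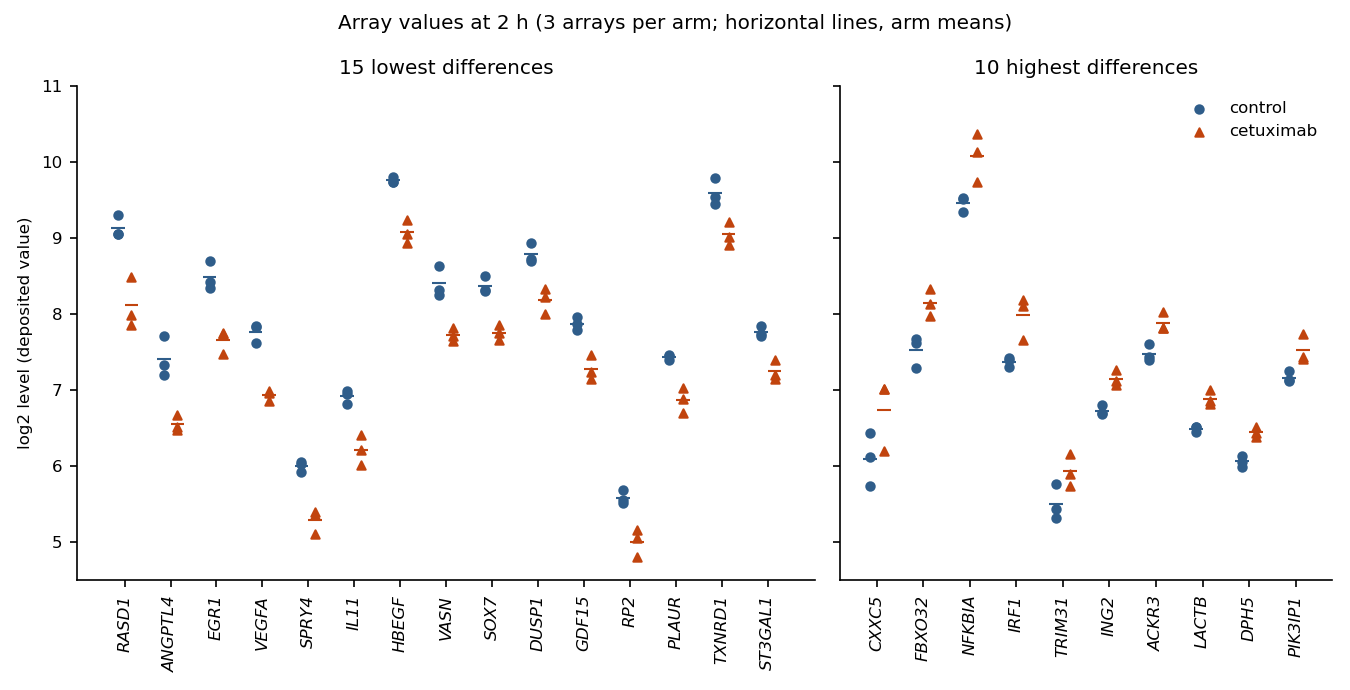
Log2 level (y axis) of each array at 2 h for the 15 called genes with the lowest and the 10 with the highest difference, with circles for 3 control arrays, triangles for 3 cetuximab arrays and short lines for arm means. The arms are apart in all 15 lower genes, and overlap in CXXC5 and TRIM31 among the higher genes.

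Among the ligands of the EGFR family, HBEGF was lower in cetuximab. This heparin-binding ligand of EGFR measured 8.94, 9.05 and 9.24 in cetuximab and 9.81, 9.74 and 9.74 in control. The difference was -0.69 ± 0.084 (adjusted p = 6.74e-08). All 5 measured ligands had a negative difference, with a median of -0.21 against 0.0015 over all genes, but HBEGF was the only one called. NRG1, a ligand of the sister receptor ERBB3, came next at -0.55 and lay just past the threshold (adjusted p = 0.0512). EREG (-0.21) and TGFA (-0.19) followed. At time 0 the median of the 5 ligands was already -0.25, against 0.01 over all genes. There EREG stood at -0.74, HBEGF at -0.37, NRG1 at -0.25, TGFA at -0.05 and BTC at 0.25.

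The receptors themselves were not called. EGFR measured 7.81, 7.89 and 8.31 in cetuximab and 8.22, 8.21 and 8.25 in control, so that cetuximab replicate 4 lay above every control and the other cetuximab arrays below. Its difference was -0.23 ± 0.11 (adjusted p = 0.674, 95% interval -0.44 to -0.014 without adjustment). ERBB2 differed by 0.047 ± 0.10 and ERBB3 by 0.092 ± 0.25, with intervals of -0.15 to 0.25 and -0.41 to 0.59. The feedback inhibitor ERRFI1, which binds the EGFR kinase, was lower in every cetuximab array than in any control (-0.24 ± 0.084). It was not called (adjusted p = 0.342), and it had differed by -0.25 at time 0 already. Of 15 ERBB receptors and regulators, 0 were called in limma and 4 were lower at an unadjusted p under 0.05, with a median of -0.067. Of 9 other receptor tyrosine kinases 1 was called, EPHA2, the receptor of ephrin-A ligands, at -0.50 ± 0.12.

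RASD1, a small GTPase of the Ras family first known as induced by dexamethasone, showed the largest difference of all called genes. It measured 7.86, 8.49 and 7.99 in cetuximab and 9.30, 9.05 and 9.05 in control. The highest cetuximab array, replicate 3, still lay below the lowest control. The difference was -1.02 ± 0.10 (adjusted p = 3.02e-11).

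ANGPTL4, which inhibits lipoprotein lipase, measured 6.52, 6.68 and 6.48 against 7.72, 7.20 and 7.33, and was highest in control replicate 1. The difference was -0.86 ± 0.12 (adjusted p = 5.97e-06), and -0.71 without that array, still called. Its dimmer probes gave smaller differences, -0.20 and -0.16, and the mean over its probes was -0.41. VEGFA, the growth factor of blood vessels, measured 6.86, 6.99 and 6.96 against 7.83, 7.84 and 7.62. Its difference was -0.83 ± 0.13 (adjusted p = 2.56e-05), with -0.71 on a second probe.

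The cytokine IL11, whose promoter is shown above, measured 6.01, 6.42 and 6.21 against 6.99, 6.95 and 6.81, a difference of -0.70 ± 0.15 (adjusted p = 0.00516) that stood beside one of -0.64 at time 0. Without control replicate 1 its difference was -0.67 and no longer called. GDF15, a stress-induced cytokine of the TGF-beta superfamily, measured 7.24, 7.46 and 7.15 against 7.96, 7.79 and 7.87, a difference of -0.59 ± 0.10 (adjusted p = 0.000383). The Notch ligand JAG1 (-0.36 ± 0.088) and the Wnt ligand WNT7A (-0.32 ± 0.077) had smaller differences, and neither was called without control replicate 1.

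VASN, a membrane protein that binds TGF-beta, measured 7.65, 7.82 and 7.72 against 8.64, 8.32 and 8.25, a difference of -0.68 ± 0.091 (adjusted p = 1.21e-06). PLAUR, the receptor of urokinase, measured 6.69, 7.03 and 6.89 against 7.45, 7.40 and 7.46, a difference of -0.57 ± 0.13 (adjusted p = 0.0214) that its other probes gave as -0.03 and -0.31. The connexin gene GJB2, the phosphate carrier SLC20A1 and the receptor-type phosphatase PTPRE were lower by 0.40 ± 0.079, 0.38 ± 0.084 and 0.50 ± 0.090. For PTPRE a second bright probe gave -0.59 and the dim ones 0.09 and 0.14.

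SOX7, a transcription factor of the SOX family, measured 7.74, 7.85 and 7.65 against 8.50, 8.30 and 8.32, a difference of -0.62 ± 0.12 (adjusted p = 0.00178), with -0.22 on a second probe. SOX9 was lower by 0.50 ± 0.12, MXD1, which pairs with MAX and opposes MYC, by 0.49 ± 0.085, and the coactivator partner CITED4 by 0.33 ± 0.076. The kinases PIM1 and HIPK2 were lower by 0.47 ± 0.11 and 0.43 ± 0.099. Without control replicate 1 the calls of PIM1, CITED4, JUN, DUSP5, PLAUR and SLC20A1 were lost.

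TXNRD1, thioredoxin reductase, measured 9.02, 9.21 and 8.91 against 9.79, 9.54 and 9.45. Its difference of -0.54 ± 0.12 (adjusted p = 0.0112), beside -0.58 at time 0, became -0.44 without control replicate 1, where the call was lost. The sialyltransferase ST3GAL1 measured 7.20, 7.39 and 7.15 against 7.85, 7.74 and 7.71 (-0.52 ± 0.12, adjusted p = 0.0184). RP2, which accelerates GTP hydrolysis by the small GTPase ARL3, measured 4.81, 5.16 and 5.05 against 5.68, 5.51 and 5.55 (-0.58 ± 0.14, adjusted p = 0.0281). Neither ST3GAL1 nor RP2 was called without control replicate 1.

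The sulfotransferase CHST15 (-0.51 ± 0.10), the S-adenosylmethionine synthase MAT2A (-0.51 ± 0.099) and YRDC, which takes part in modifying transfer RNAs (-0.42 ± 0.076), were called lower as well. So were the sterol-binding protein gene OSBPL10 (-0.34 ± 0.079), NABP1, which binds single-stranded DNA (-0.40 ± 0.095), ITPRIP (-0.36 ± 0.081), GFOD1 (-0.38 ± 0.076) and ATOSB (-0.41 ± 0.099). Of these 8 genes CHST15, YRDC and GFOD1 kept their call without control replicate 1. A second probe of ITPRIP, nearly as bright, gave -0.19, and one of YRDC gave -0.50.

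FBXO32, the called gene with the largest positive difference among those in which the arms did not overlap, is a ubiquitin ligase subunit known as a FOXO target in muscle. It measured 8.33, 7.97 and 8.13 in cetuximab and 7.29, 7.67 and 7.63 in control. It differed by 0.62 ± 0.11 (adjusted p = 0.000498), with 0.44 on a dimmer probe, and control replicate 1 was its lowest array. PIK3IP1, an inhibitor of PI3K, measured 7.74, 7.44 and 7.41 against 7.11, 7.25 and 7.13 and differed by 0.36 ± 0.091 (adjusted p = 0.0389). Of 28 FOXO targets and genes of PI3K feedback these were the 2 called higher and KLF6 the 1 called lower, with a median of 0.064. IRS2, an adaptor of the insulin receptor that FOXO factors induce in liver, was not called (-0.16 ± 0.10, adjusted p = 0.822).

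NFKBIA and IRF1 were higher in cetuximab by nearly the same amount. NFKBIA, which encodes the inhibitor that holds NF-kB in the cytoplasm, measured 10.14, 9.74 and 10.36 against 9.34, 9.53 and 9.52, and differed by 0.62 ± 0.13 (adjusted p = 0.00714). IRF1, a transcription factor of the interferon response, measured 8.11, 7.66 and 8.19 against 7.30, 7.42 and 7.40, and differed by 0.61 ± 0.094 (adjusted p = 2.56e-05). In both, cetuximab replicate 3 was the lowest of its arm. The lists around them were not, as a whole, higher in cetuximab at 2 h. NFKBIA was the only called gene of 18 NF-kB and inflammatory genes, with a median of -0.083 and IL1A lowest at -0.38. At time 0 the median of these 18 genes was -0.22. IRF1 was the only one of 23 interferon-stimulated genes, with a median of 0.0083.

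CXXC5, a zinc finger protein that dampens Wnt signalling, had the largest positive difference and the widest spread among the called higher genes, measuring 7.01, 6.20 and 7.02 against 5.73, 6.44 and 6.12. The arms overlapped, with an SD of 0.47 in the cetuximab arrays and 0.35 in the controls. With the pooled SE the difference was 0.64 ± 0.14 (adjusted p = 0.011 in limma), and a second probe gave 0.23. TRIM31, a ubiquitin ligase whose second probe gave 0.15, also overlapped, with 6.16, 5.74 and 5.90 against 5.43, 5.32 and 5.76 (0.43 ± 0.11, adjusted p = 0.04). ACKR3, a scavenging receptor of the chemokine CXCL12, did not, with 7.82, 7.81 and 8.02 against 7.43, 7.60 and 7.40 (0.40 ± 0.10, adjusted p = 0.04).

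ING2, a reader of histone methylation, measured 7.12, 7.26 and 7.06 against 6.80, 6.68 and 6.70 (0.42 ± 0.10, adjusted p = 0.0272). The mitochondrial protein gene LACTB measured 6.82, 6.85 and 7.00 against 6.46, 6.51 and 6.51 (0.39 ± 0.095, adjusted p = 0.0272). DPH5, an enzyme of diphthamide synthesis, measured 6.52, 6.38 and 6.44 against 6.06, 6.13 and 5.99 (0.38 ± 0.091, adjusted p = 0.0255). Second probes gave smaller values in all 3 genes, 0.11 for ING2, 0.10 for LACTB (0.016 on a further probe) and -0.0035 for DPH5. The other called higher genes were the coagulation factor gene F12 (0.36 ± 0.081), NIF3L1 (0.36 ± 0.082), TM2D3 (0.35 ± 0.076) and the mitochondrial ribosomal protein gene MRPS31 (0.28 ± 0.070). A dimmer probe of TM2D3 gave 0.18. Without control replicate 1 only IRF1 and F12 of the 14 higher genes were called, FBXO32 at 0.50, NFKBIA at 0.56 and CXXC5 at 0.46 falling short.

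Beyond the EGFR pathway, the called genes were spread over many lists. Of 14 glucocorticoid receptor targets RASD1, ANGPTL4 and DUSP1 were called lower and NFKBIA higher, with a median of -0.16, and MT1X, at -0.98, was not called and rested on control replicate 1. Of 30 hypoxia and glycolysis genes VEGFA and ANGPTL4 were called lower, with a median of -0.036 and PFKFB3, which promotes glycolysis, at -0.31 (adjusted p = 0.0615). ANGPTL4 was also the 1 called gene of 9 PPAR targets, GDF15 that of 17 p53 targets (median -0.099, with CDKN1A at -0.37 and an adjusted p of 0.11), and PLAUR that of 15 genes of migration and mesenchymal transition (median -0.15). Of 11 Wnt targets and inhibitors CXXC5 was called higher and SOX9 lower.

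Genes of the cell cycle and of growth were not called in limma. None passed among 32 genes of S phase and DNA replication (median -0.0059), 34 of mitosis (median 0.059), 12 D cyclins and CDK inhibitors (median -0.076) and 27 of ribosome biogenesis and MYC targets (median -0.028). At an unadjusted p under 0.05 these lists held 2 lower genes, 2 higher, 3 lower, and 1 higher and 2 lower, in that order. CDKN1B, a CDK inhibitor, differed by 0.45 with an adjusted p of 0.812. The same held for 18 genes of cholesterol synthesis (median -0.084), 27 ATF4 targets (-0.06), 17 YAP/TEAD targets (-0.0063), 15 TGF-beta and BMP genes (-0.017), 19 apoptosis regulators (-0.019) and 15 integrins and adhesion genes (-0.11). Among 17 histone genes 0 were called and 15 had a positive difference, with a median of 0.099 against 0.0015 over all genes. Ribosomal proteins (27 genes, -0.016), housekeeping genes (14, -0.061), chaperones (17, 0.013) and clock genes (13, 0.06) had 0 called genes too. Among all these further lists the unadjusted count was at most 2 in either direction.

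**Figure D3:**
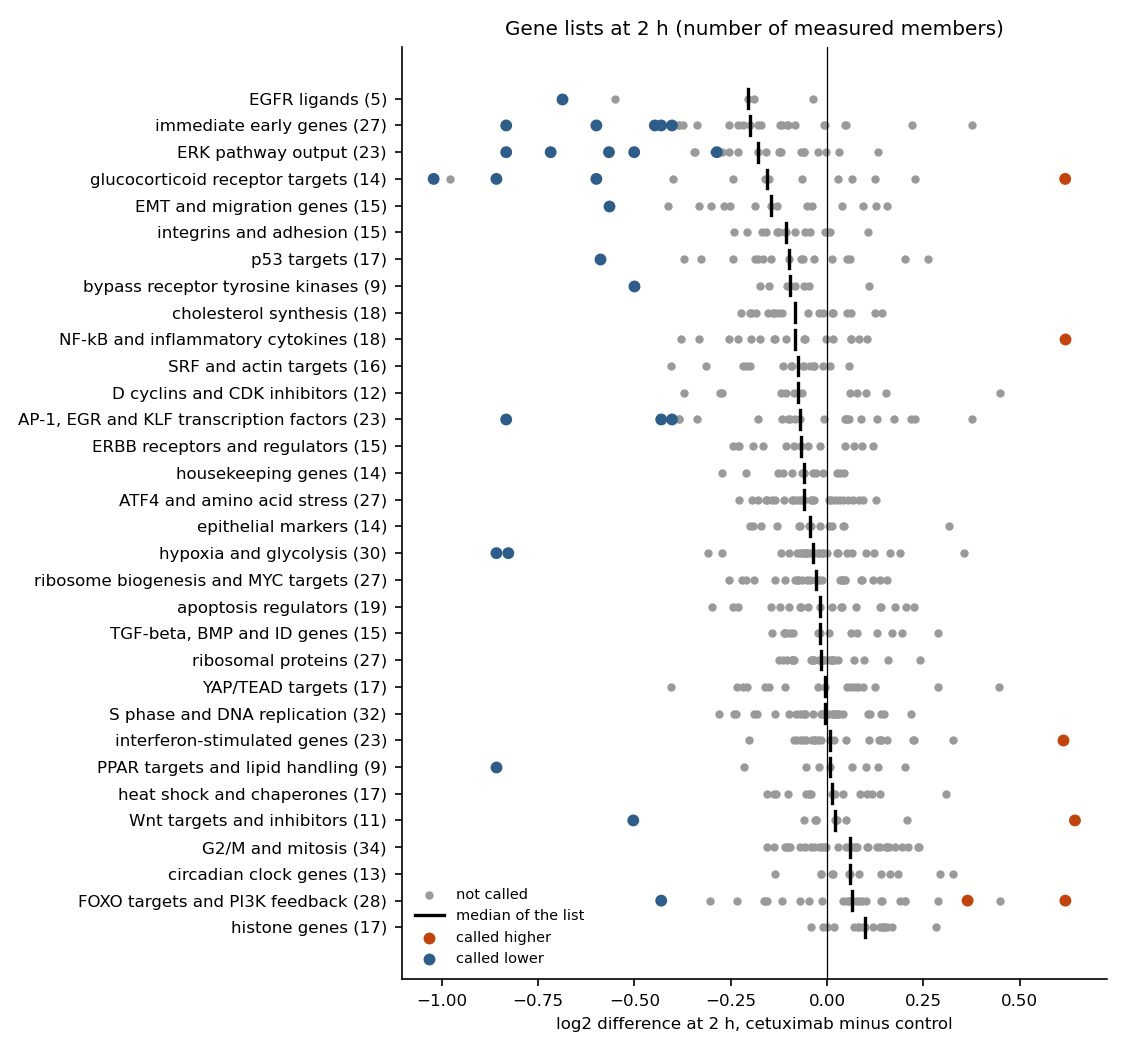
Log2 difference at 2 h, cetuximab minus control (x axis), of the measured members of each gene list (rows, with their number), with the median of each list as a black bar and called genes in colour. EGFR ligands, immediate early genes and ERK pathway output have the lowest medians (-0.21, -0.20 and -0.18), with most members of each not called. At time 0, not drawn here, the medians of these lists were -0.25, -0.25 and -0.096.

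Both arms changed from time 0 to 2 h, so the difference at 2 h was set beside the course of each arm, with which it shares arrays. In the control arm 1369 genes were called between time 0 and 2 h (10.7% of those tested), and in the cetuximab arm 1834 (14.4%). Of the 14 genes higher at 2 h 10 had fallen in the control arm and 0 had risen, while in the cetuximab arm 6 had fallen and 2 (IRF1 and FBXO32) had risen. Of the 38 lower genes 15 had risen and 9 fallen in the control arm, against 5 and 15 in the cetuximab arm.

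The courses took different shapes. EGR1 fell in both arms, with a change of -2.28 in control and -3.34 in cetuximab, as did DUSP1 (-1.64 and -2.58), ZFP36 (-1.01 and -1.67) and HBEGF (-0.99 and -1.31). ANGPTL4 rose by 1.35 in control and was called there, while its change of 0.29 in cetuximab was not called (adjusted p = 0.11). VEGFA rose by 0.46 in control against -0.06 in cetuximab. RASD1 fell by 0.43 in cetuximab and changed by 0.18 in control, and SOX7 fell by 0.96 and changed by -0.13. NFKBIA fell by 1.14 in control and stood at 0.24, not called, in cetuximab. IL11 (1.01 in control, 0.95 in cetuximab) and TXNRD1 (1.72 and 1.76) rose about equally in both arms.

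**Figure D4:**
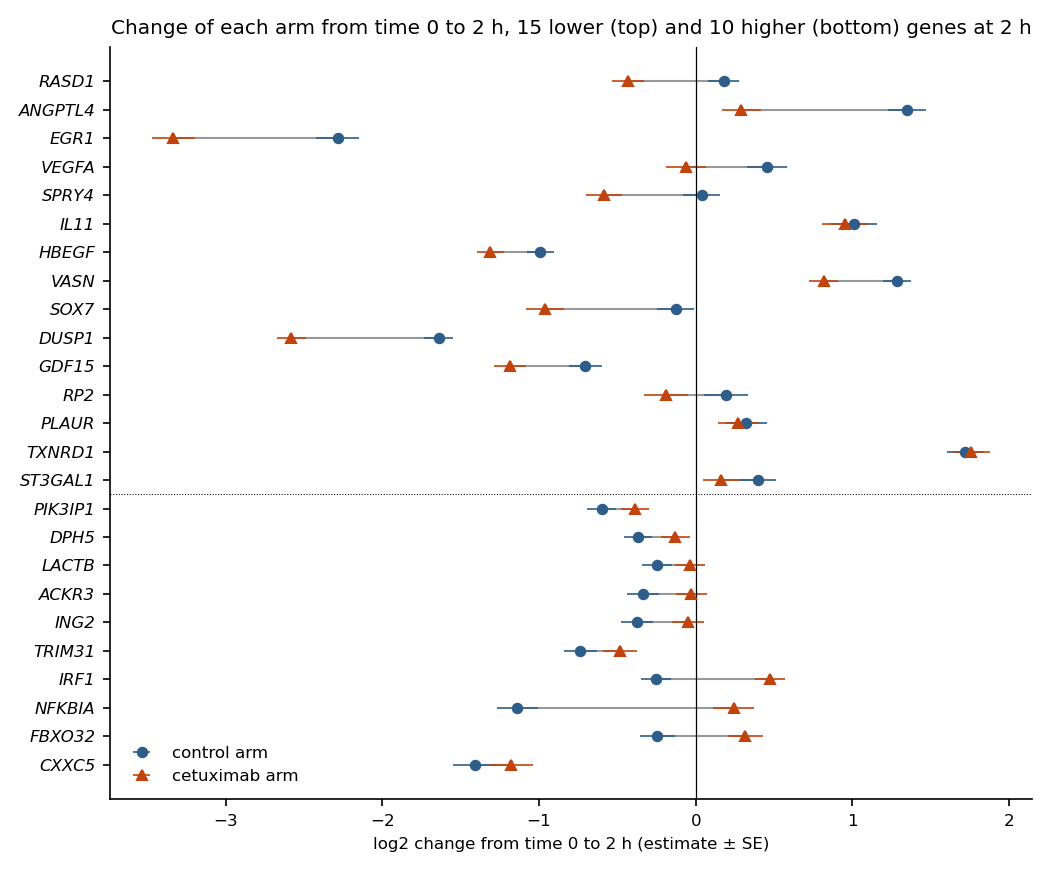
Log2 change from time 0 to 2 h (x axis, estimate ± SE) in the control arm (circles) and the cetuximab arm (triangles) for the 15 called genes with the lowest and the 10 with the highest difference at 2 h (rows). ANGPTL4 moved by 1.35 in control and 0.29 in cetuximab, NFKBIA by -1.14 and 0.24, and IL11 and TXNRD1 by nearly the same amount in each arm.

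The arms already differed at time 0, where 316 genes were called (2.48%). Of the 38 lower genes 8 were called lower there as well: RASD1 (-0.41), IL11 (-0.64), HBEGF (-0.37), PLAUR (-0.52), TXNRD1 (-0.58), EPHA2 (-0.90), MXD1 (-0.33) and DUSP5 (-0.67). DUSP1 was called the other way (0.34). Of the 14 higher genes TM2D3 was called higher at time 0 (0.27) and NFKBIA lower (-0.77). EPHA2, DUSP5 and TXNRD1 had larger differences at time 0 than at 2 h, though the change between these times was not called in them. Fewer genes were called between the arms at the next times, 1 at 5 min and 1 at 10 min. IL11 (0.22), PLAUR (0.21), DUSP1 (-0.22) and NFKBIA (0.21) had the other sign at 5 min than at time 0. EPHA2 (-0.40), DUSP5 (-0.29), MXD1 (-0.19), HBEGF (-0.12), RASD1 (-0.06), TXNRD1 (-0.03) and TM2D3 (0.19) kept their sign with smaller differences. None of these genes was called at 5 min.

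The difference at 2 h was tested against that at time 0 in a contrast of both, in which 49 genes were called (0.385%), 21 upward and 28 downward. It holds the same arrays of 2 h as the 52 calls, so overlap between them is partly built in. Among the 52 genes 7 were called downward: ANGPTL4 (-1.06 ± 0.17), EGR1 (-1.05 ± 0.19), DUSP1 (-0.94 ± 0.13), SOX7 (-0.84 ± 0.17), ZFP36 (-0.66 ± 0.11), CHST15 (-0.63 ± 0.14) and RASD1 (-0.61 ± 0.14). NFKBIA (1.38 ± 0.19) and IRF1 (0.73 ± 0.13) were called upward. The largest shift of all was that of FOS, from 1.51 at time 0 to -0.38 at 2 h (-1.89 ± 0.17, adjusted p = 3.5e-13 in limma). Between these times FOS differed by -0.12 at 5 min, 0.04 at 10 min, -0.45 at 30 min and 0.08 at 1 h. Its difference at time 0 was thus no longer seen at 5 min. For the other 43 called genes a difference from time 0 was not shown.

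Differences at other times come from other arrays, but all 90 arrays set the estimate of spread behind every call. At time 0, 28 of the 38 lower genes and 12 of the 14 higher genes had the same sign as at 2 h, at 5 min 27 and 10, and at 10 min 21 and 11. At 1 h 34 of the 38 lower genes and 12 of the 14 higher genes had the same sign as at 2 h, at 8 h 33 and 13, at 30 min 33 and 9, and at 4 h 23 and 12. The share over all genes with the same sign as at 2 h ran from 53.6% to 58.4% between time 0 and 8 h. Of the members 2 were called higher and 3 lower at 1 h, where 0.306% of all genes were called (FBXO32 and PIK3IP1; SOX7, PTPRE and HIPK2). At 4 h, with 1.71% of genes called, 6 were called higher (FBXO32, CXXC5, NFKBIA, IRF1, ACKR3 and PIK3IP1) and 3 lower (SPRY4, SOX9 and GJB2).

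FBXO32, which stood at -0.26 at 30 min, differed by 0.61, 0.62, 0.77 and 0.62 at 1, 2, 4 and 8 h. SPRY4 went from -0.02 at 30 min to -0.33, -0.72, -0.52 and -0.44 at the same later times. Both kept their sign from 1 h to 8 h. VEGFA differed by -0.42 at 1 h and -0.83 at 2 h, then 0.06 at 4 h. EGR1 was low at 30 min (-0.70), 2 h (-0.83) and 8 h (-0.72) and near 0 at 4 h (0.04).

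Against the mean of its neighbours at 1 h and 4 h, the difference at 2 h was called in 8 genes, all lower (0.0628%). They were RASD1 (-0.99 ± 0.12), IL11 (-0.81 ± 0.18), GDF15 (-0.77 ± 0.13), VASN (-0.77 ± 0.11), DUSP1 (-0.66 ± 0.11), CCN2 (-0.66 ± 0.14), HBEGF (-0.65 ± 0.10) and KLF6 (-0.57 ± 0.10). The contrast shares its arrays of 2 h with the calls at 2 h, so overlap between them is partly built in and gives no separate support. CCN2, which encodes a matricellular protein, was the only one of the 8 that had not been called at 2 h. RASD1, for example, differed by -0.19 at 1 h and 0.13 at 4 h. In no gene was the difference called higher at 2 h than its mean over those neighbours in limma. In 313 it was higher at an unadjusted p under 0.05.

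On the mean of days 1 to 7, with 13.3% of all genes called, 19 of the 38 lower genes were called lower and 6 higher, and of the 14 higher genes 7 were called higher and 2 lower. EGR1 was lower by 0.99 ± 0.052 and HBEGF by 0.41 ± 0.032, while CXXC5 (0.57 ± 0.053) and PIK3IP1 (0.53 ± 0.034) stayed higher. VASN (0.45) and CHST15 (0.25) had turned higher, F12 (-0.26) and TRIM31 (-0.13) lower. ANGPTL4 (-0.0005) and IL11 (-0.036) were not called over the days.

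**Figure D5:**
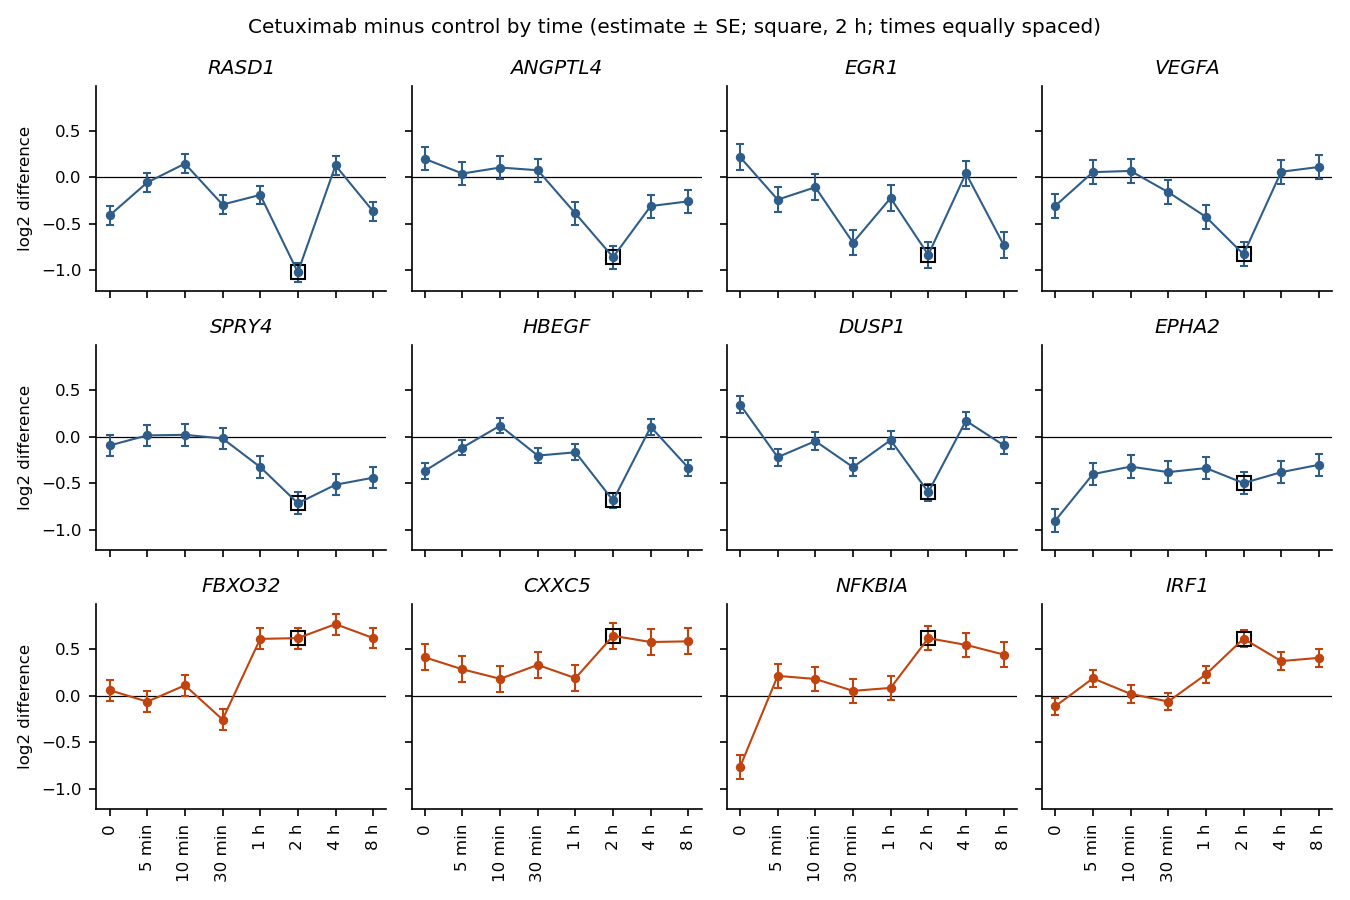
Log2 difference, cetuximab minus control (y axis, estimate ± SE), at time 0 and at 7 later times up to 8 h (x axis, equally spaced) for 8 lower and 4 higher genes, with 2 h marked by a square. RASD1, HBEGF and DUSP1 dip at 2 h between smaller differences at 1 h and 4 h, while FBXO32 stays between 0.61 and 0.77 from 1 h to 8 h.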

How the data were processed

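The samples were 90 arrays of total RNA from BxPC-3 cells, labelled with biotin and hybridised to 1-colour Illumina HumanHT-12 v4 BeadChips. The authors deposited 1 processed value per probe and array. These run from 0.26 to 13.76 and were taken as log2 values deposited by the authors, although no source states the base. Array medians were alike (4.29 to 4.36), and no further scaling was applied here. The processing notes name limma without a version, and for background correction and normalization the method is not given in the sources used here. No detection p was used. Precision is limited by how many arrays there are.

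Of 47292 probes, 30096 had 1 gene symbol in the platform annotation, 8 had several and 17188 had none. Only probes with 1 symbol were used. A probe was dropped as dim if it averaged less than 4.24, the middle value of all probe averages, and the brightest probe stood for a gene. This filter kept 12735 genes. In limma 3.58.1 (R 4.3.3), a model with 1 mean per group of the 90 arrays was fitted (60 residual degrees of freedom), and two-sided contrasts were adjusted over all genes by Benjamini-Hochberg. The 6 arrays of 2 h alone would leave few degrees of freedom, and an exact test of 3 against 3 arrays cannot go below p = 0.1.

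All called genes were named, with array values for the 15 lowest and 10 highest differences. A fixed set of EGFR pathway genes (EGFR, ERBB2, ERBB3, EGR1, FOS, MYC, DUSP6, SPRY4, CCND1, ERRFI1 and IRS2) was always given, as were the largest differences in each list (at most 4) and the 3 largest of each sign in the contrasts between times. The 36 gene lists came from general knowledge. The genes, lists and tests were chosen with earlier results of these data known. JUNB, NRG1, PFKFB3 and CDKN1A fell under the rule for lists, and the metallothioneins, SLC30A1 and HMOX1 were chosen after their values were seen. A gene can belong to more than 1 list. Promoters are from RefSeq (GRCh38.p14). Alternatives changed the normalization (quantile, or centring on medians), the filter (none, or a stricter one), the gene summary (a mean over probes), the weights of arrays, the prior (trended and robust), and the arrays in the fit, with a replicate block in 2 forms and each array or replicate number left out in turn. The procedure was checked on data made with known changes on the log2 scale. It recovered 100% of changes of 1 and 56% of changes of 0.5, with 4 false calls among 160. A difference near 0.5 can thus go uncalled. The noise was drawn independently for each array, whereas same-numbered arrays of these data could deviate together (r up to 0.573), which the check does not cover.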

Additional observations from a re-analysis of the deposited data

Results flagged for a closer look

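The difference between the arms at 2 h was itself different from that at time 0, by the contrast of both, in 49 genes. Given here are those also called at 2 h and the 3 largest shifts of each sign. FOS shifted by -1.89 (adjusted p = 3.5e-13 in limma), SPRY1, a Sprouty inhibitor, by -1.09, and NFKBIZ, an NF-kB cofactor, by -1.07. TNFAIP3, a brake on NF-kB, shifted by 1.09 and CYP1A1, a target of the aryl hydrocarbon receptor, by 1.07. In SPRY1, NFKBIZ and TNFAIP3 the differences were large at time 0 (1.12, 1.01 and -1.29) and small at 2 h (0.03, -0.06 and -0.20). At 5 min they already stood at -0.07, 0.34 and -0.08, and that of FOS went from 1.51 at time 0 to -0.12 at 5 min. Among genes called at 2 h the shifts were ANGPTL4 -1.06, EGR1 -1.05, DUSP1 -0.94, SOX7 -0.84, ZFP36 -0.66, CHST15 -0.63, RASD1 -0.61, IRF1 0.73 and NFKBIA 1.38. What set the arms apart at time 0 was not tested.

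The difference at 2 h also departed from the mean of those at 1 h and 4 h in RASD1 (-0.99), IL11 (-0.81), GDF15 (-0.77), VASN (-0.77), CCN2 (-0.66), DUSP1 (-0.66), HBEGF (-0.65) and KLF6 (-0.57). In all 8 the difference, cetuximab minus control, was lower at 2 h than its mean over these neighbours.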

How the results depend on the processing

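None of the 52 called genes changed sign under the alternatives tried at 2 h, and RASD1, ANGPTL4, EGR1, VEGFA, HBEGF and VASN were called in all of them but the fit on the 6 arrays of 2 h alone. That fit called 0 genes in limma (840 at an unadjusted p under 0.05), against 52 with all arrays and 43 with the arrays of time 0 to 8 h. Array weights gave 79 calls. The replicate block with numbers as labelled gave 35 calls and left 33 of the 52. The replicate block on numbers 2 and 3 alone gave 30, and 22 for the shift from time 0 and 892 for the control course. No source ties the numbers to a shared culture. Same-numbered arrays of the arms deviated together with r from -0.036 to 0.573 over 43 pairs of all times, 26 of them over 0.1, and with 0.063 and 0.013 at 2 h, so the pairing was not borne out in every pair. Leaving out 1 array or replicate number gave 7 to 55 calls at 2 h, with 7 without replicate 2, 27 without replicate 1, 26 without control replicate 1 and 21 without cetuximab replicate 2. It gave 7 to 54 for the shift from time 0, 1 to 10 for that from 1 h and 4 h, 680 to 1375 for the control course and 877 to 1836 for the cetuximab course. With only the arrays of the times compared, 11 genes were called for the shift from time 0, 4 for that from 1 h and 4 h, 874 for the control course and 1137 for the cetuximab course. Array weights gave 16 for the shift from 1 h and 4 h. The cause of these changes was not tested.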

Other observations

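Of 6459 probes without a single gene symbol that passed the filter, 0 were called at 2 h in limma, and 306 had an unadjusted p under 0.05. The metallothionein MT1H measured 8.00 in control replicate 1 at 2 h and from 5.48 to 5.89 in the other 5 arrays of that time, and MT1M measured 7.10 against 4.47 to 4.69. MT2A measured 12.26 in that array and 11.09 to 11.47 in the others.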
